A study of Mus musculus with 4 samples.

Results

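Tenascins and thrombospondins are secreted glycoproteins of the extracellular matrix (ECM), and the genes described here are *Tnc*, *Tnxb*, *Tnn*, *Tnr*, *Thbs1*, *Thbs2*, *Thbs3*, *Thbs4* and *Comp*. They were chosen by gene symbol, as the tenascin family together with the thrombospondin family, and all 9 were found among the 23284 gene symbols counted. RNA was sequenced from Osr1+ cells of E13.5 mouse limbs (strain C57BL/6J). Cells were sorted as live and GFP+ by FACS from 2 *Osr1* GCE/+ and 2 *Osr1* GCE/GCE embryos. GCE is an eGFP-IRES-CreERt2 cassette knocked in at *Osr1*, so every cell analysed carried the reporter allele. The controls were heterozygous, and no *Osr1* wild-type cells were among the samples. Each sample is described as 1 embryo, the deposited values are raw fragment counts, and values are given below as CPM, which are counts scaled to a common library size.

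Tenascins assemble into hexamers or smaller oligomers and loosen or modify the contact of cells with fibronectin and collagen. Tenascin-C is typical of embryonic mesenchyme, tendon and perichondrium. Thrombospondins bind calcium and fall into a trimer-forming group (*Thbs1*, *Thbs2*), whose type 1 repeats bind the receptor CD36, and a pentamer-forming group (*Thbs3*, *Thbs4*, *Comp*). *Thbs4* and *Comp* are known for tendon, and *Comp* for cartilage, where its product binds collagens II and IX and matrilins.

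The genotype was first checked on *Osr1*, which had 81.9 and 79.1 CPM in the GCE/+ samples, against 11.9 and 13.9 CPM in the GCE/GCE samples. Total counts ranged from 52121596 to 61402140 per sample, and 3 counts corresponded to at most 0.0574 CPM. *Xist*, the RNA that silences an X chromosome, was at 1142 CPM in GCE/GCE replicate 1 and at no more than 2.63 CPM in the other samples. Only the fits without GCE/GCE replicate 1, given below, compare samples that were all low in *Xist*. Connective tissue markers (10 genes, among them *Col3a1*, *Pdgfra* and *Dcn*) summed to 15544 and 14078 CPM in GCE/+ and to 12822 and 11259 CPM in GCE/GCE samples. None of the 10 passed in edgeR, whereas DESeq2 called 5 of them lower, and their median log2 fold change was -0.30. The markers of endothelium summed to 119 and 97.7 CPM in GCE/+ and to 96.3 and 80.5 CPM in GCE/GCE samples. None of these 8 passed in edgeR and DESeq2 called 1 lower, with a median log2 fold change of -0.47. The markers of skeletal muscle summed to 188 to 245 CPM and those of epithelium to 22.7 to 28.8 CPM. Those of glia summed to 22.8 to 27.7 CPM and those of erythroid cells to 173 to 509 CPM. *Bglap* (osteoblast) and *Hba-a1* (erythroid) had at most 3 counts in every sample. The 8 osteoblast markers summed to 113 and 112 CPM in GCE/+ and to 150.4 and 148 CPM in GCE/GCE samples. Of the 7 tested, *Runx2* was higher in GCE/GCE cells (31.6 and 37.4 against 68.2 and 74.7 CPM, adjusted p = 0.0121, edgeR). The other 6 did not pass in edgeR, and DESeq2 called 1 of the 7 higher and 1 lower. Of 14 cartilage markers, 6 were higher in GCE/GCE cells and none lower, and of 13 macrophage markers, 9 were lower and none higher, by edgeR's quasi-likelihood test at a Benjamini-Hochberg adjusted p under 0.1. This test and threshold were used throughout, over 15645 genes, of which 1.82% passed.

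*Tnc*, the tenascin that differed between the genotypes, lies on chromosome 4 of GRCm38 from 63959785 to 64047015, on the minus strand. Its upstream sequence is shown because it was the only one of these genes past the threshold. It comprises the 250 bases (RefSeq, GRCm38.p6, chr4:64047016-64047265, minus strand) before the outermost annotated start, and another start is annotated at 64046936. Capitals mark matches to the letters TATAAA and TGCAAAT. The first was the search for the TATA box, the second for part of the octamer that POU factors recognise.
Tnc upstream: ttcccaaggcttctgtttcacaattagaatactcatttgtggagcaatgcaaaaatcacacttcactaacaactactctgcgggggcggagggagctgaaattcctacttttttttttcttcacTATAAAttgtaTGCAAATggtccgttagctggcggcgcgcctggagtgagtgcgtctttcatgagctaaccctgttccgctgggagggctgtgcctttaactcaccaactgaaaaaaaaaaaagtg
Matches were accepted on both strands and at any distance from the start. This stretch held TATAAA at 126 and TGCAAAT at 115 bases before its start, or 205 and 194 bases before the start at 64046936. It also held 3 matches to CANNTG (E-box), 1 of which overlaps TGCAAAT, and 1 match to GGGCGG (GC box), but none to CAGAC (SMAD element) or TGTGGT (RUNX element). The window before the other start, which overlaps this stretch, did hold 1 SMAD element, at 70 bases before that start. Close to that start the window also held TATATAA, a similar run of letters that the search for TATAAA did not cover. Among 32851 windows of the same length in all genes, 12.4% held the TATA box, 3.56% the octamer part, 66.2% an E-box, 32.7% a GC box, 42.2% a SMAD element and 14% a RUNX element. Of the other genes, *Tnxb*, *Tnn*, *Tnr*, *Thbs2*, *Thbs3* and *Thbs4* had 1 such window each, and TGCAAAT occurred in none of these 6. TATAAA occurred in that of *Thbs2*, at 126 bases before the start but on the strand opposite to the gene, unlike in *Tnc*. CAGAC occurred in those of *Tnxb*, *Tnr*, *Thbs2* and *Thbs4*. These matches describe the letters of the windows and were not tied to any measurement of binding.

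Levels of different genes were compared per length, as CPM divided by the length in kb of the longest annotated RefSeq transcript, which was 7.1 kb for *Tnc* and 2.416 kb for *Comp*. In GCE/+ cells *Thbs1* was the most abundant of the 9, at 176 ± 13.2 CPM per kb (SD, n = 2), which placed it 284th among 15471 tested genes with a length. *Thbs4* followed at 53.9 ± 6.6, *Tnc* at 48.6 ± 1.1, *Thbs2* at 33.4 ± 2.76 and *Thbs3* at 33.3 ± 1.46 CPM per kb. All 5 lay above the median of the tested genes, 7.12 CPM per kb. *Comp* at 1.32 ± 0.546, *Tnn* at 0.994 ± 0.28 and *Tnxb* at 0.793 ± 0.233 CPM per kb lay below it. *Tnr* was last at 0.0123 ± 0.0136 CPM per kb. In this order the GCE/+ samples of *Thbs4* and *Tnc* overlapped, as did those of *Thbs2* and *Thbs3*, of *Comp* and *Tnn*, and of *Tnn* and *Tnxb*. In the GCE/GCE samples *Tnc*, at 66 ± 2.1 CPM per kb, took the place of *Thbs4*, at 61 ± 8.22 CPM per kb, and the other places stayed as they were. There too the samples of *Tnc* (67.5 and 64.5 CPM per kb) and *Thbs4* (66.8 and 55.2 CPM per kb) overlapped.

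**Figure D1:**
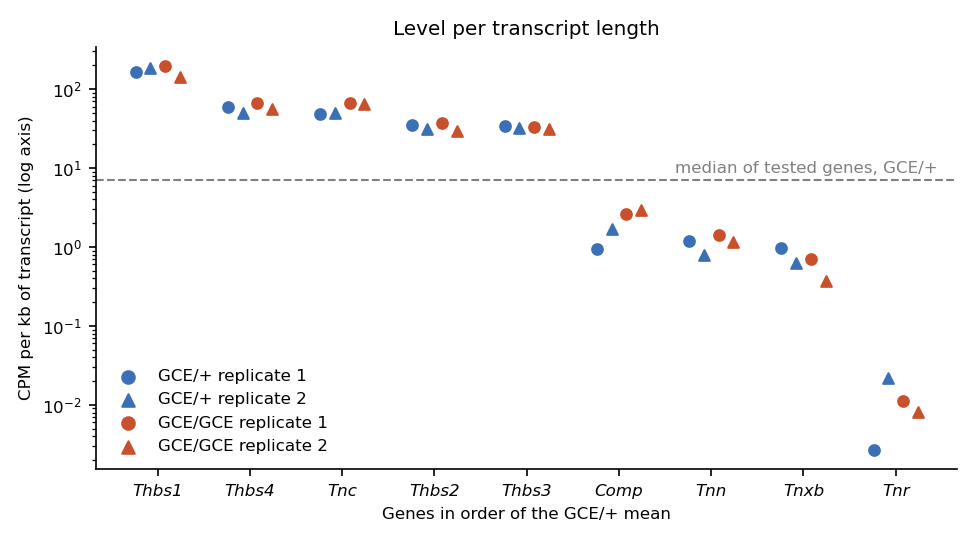
Level per transcript length (CPM per kb, log axis) of the 9 genes in each of the 4 samples, in the order of the GCE/+ mean. *Thbs1* to *Thbs3* lie above the dashed line, the median of all tested genes in GCE/+ cells (7.12 CPM per kb), and *Comp* to *Tnr* lie below it.

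Scaled by length, a single gene made up most of each family. *Tnc* contributed 95.7% and 97.2% of the tenascin total in the GCE/+ samples, against 96.9% and 97.7% in the GCE/GCE samples. *Thbs1* contributed 56.4% and 61.8% of the thrombospondin total in the GCE/+ samples, against 58.3% and 54.5% in the GCE/GCE samples. *Comp* made up the smallest share of the thrombospondins, with 0.317% and 0.569% in the GCE/+ samples, against 0.777% and 1.13% in the GCE/GCE samples. The tenascin total was 50.0 and 50.9 CPM per kb in GCE/+ cells and 69.6 and 66.1 CPM per kb in GCE/GCE cells. The thrombospondin total was 296 and 300.3 CPM per kb in GCE/+ cells, between the 335 and 261 CPM per kb of GCE/GCE cells.

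**Figure D2:**
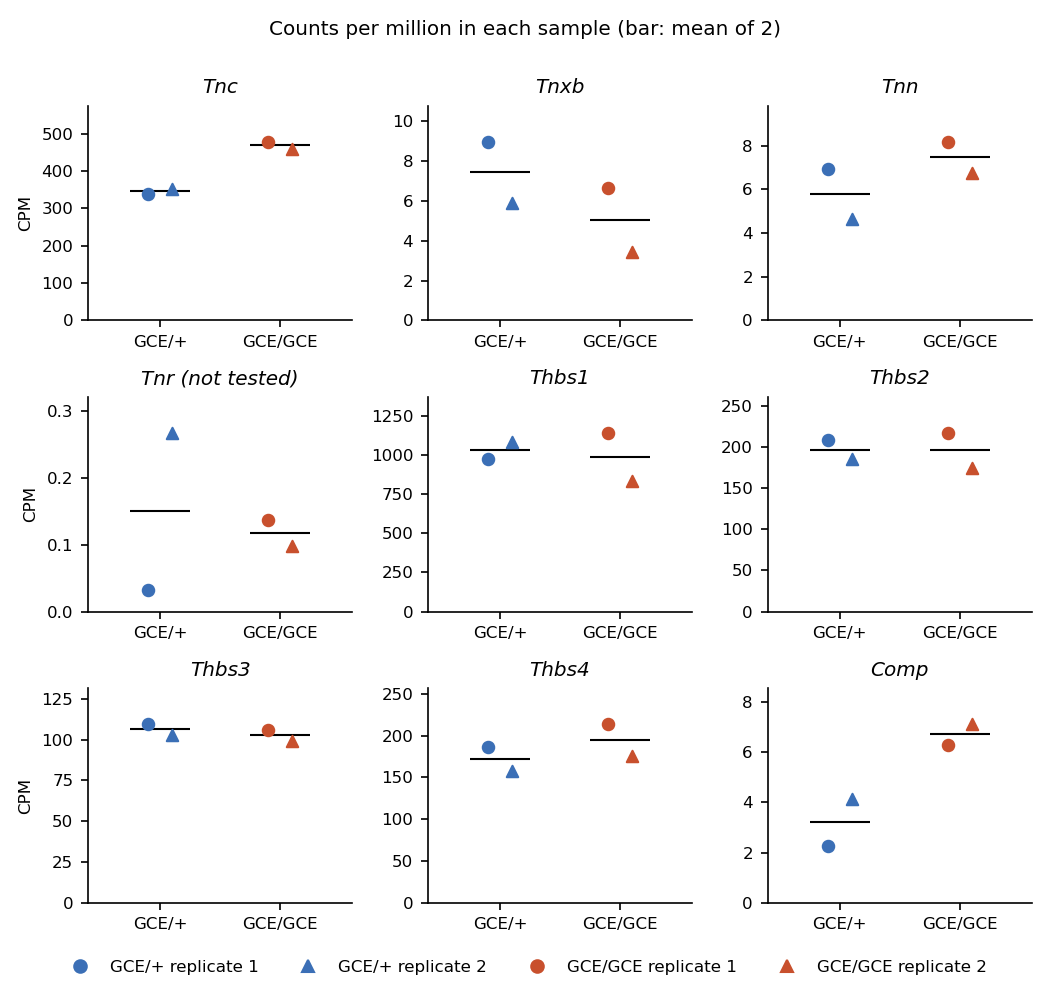
CPM of each gene in the 2 GCE/+ and the 2 GCE/GCE samples, each panel with its own axis from 0, with bars at the mean of a genotype. The genotypes are apart in *Tnc* (339.7 and 351 against 479 and 458 CPM) and *Comp* (2.27 and 4.13 against 6.29 and 7.11 CPM) and overlap in the other 7.

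The comparison between genotypes asked which genes depend on *Osr1* in these cells. Of the 9 genes 8 had enough counts to be tested, and 1 of these, *Tnc*, passed the threshold, against 1.82% of all tested genes (0.895% higher and 0.927% lower in GCE/GCE). With the replicate number as a block in the model, 1 of the 8 passed, *Comp* in place of *Tnc*, against 1.85% of all tested genes (0.895% higher and 0.959% lower). In DESeq2, 2 of the 8 passed, against 3.45% (1.77% higher and 1.69% lower). An unadjusted p under 0.05 was reached by 2 of the 8, *Tnc* and *Comp*, against 10.5% of all tested genes. Both GCE/GCE values lay outside both GCE/+ values, on the higher side, for the same 2 genes, whereas 38.4% of all tested genes were apart in either direction, 19.2% on the higher and 19.1% on the lower side. The median log2 fold change (GCE/GCE over GCE/+) of the 8 was 0.08, and that of all tested genes was 0.0033. The lowest p of a two-sided exact permutation test is 0.333 with 2 samples against 2, and edgeR borrows the estimate of the spread from other genes. These p-values therefore rest on the spread of each gene and of other genes between these samples, and do not measure the spread between further embryos.

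*Tnc* had 20686 and 18343 counts in GCE/+ replicates 1 and 2 and 27820 and 28047 counts in GCE/GCE replicates 1 and 2. Scaled, these were 339.7 and 351 CPM in the GCE/+ samples, against 479 and 458 CPM in the GCE/GCE samples. Both GCE/GCE samples were above both GCE/+ samples, and within a genotype the replicates differed by 0.05 and -0.06 on the log2 scale. *Tnc* rose by 0.44 on the log2 scale (SE 0.09, 95% interval 0.24 to 0.64), or 1.36-fold, and its Benjamini-Hochberg adjusted p in edgeR was 0.068. DESeq2, the tool of the study, gave 0.44 with an adjusted p of 0.000508. The edgeR call was lost without GCE/+ replicate 1 (0.41, adjusted p = 0.123), without GCE/GCE replicate 1 (0.40, adjusted p = 0.166) and without the filter on low counts (0.44, adjusted p = 0.12). Longer transcripts tended to have higher fold changes over all tested genes (rank correlation, Spearman's rho 0.251 over 15471 genes, which are not independent replicates). With offsets for that trend *Tnc* was at 0.34 with adjusted p = 0.0844 (edgeR). In sorted bulk cells, more cells of a type and more RNA per cell cannot be told apart.

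The genes whose values followed those of *Tnc* most closely over the 4 samples were *Tgfb3*, *Mamdc2* and *Itga11*. Likeness was the Euclidean distance between log2 CPM values centred on each gene's mean, and 13468 tested genes averaging 1 CPM or more were searched. *Tgfb3*, which encodes a TGF-β ligand, had 117 and 119 CPM in the GCE/+ samples, against 158 and 153 CPM in the GCE/GCE samples, a distance of 0.0442. *Mamdc2*, which encodes a proteoglycan, had 2.53 and 2.54 CPM against 3.41 and 3.3 CPM. *Itga11*, which encodes the α subunit of a collagen-binding integrin, had 27.8 and 28.9 CPM against 40.7 and 37.4 CPM. Within a distance of 0.1 of *Tnc* lay 35 genes, so that with 4 samples the likeness is not particular to these 3.

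The other tenascins were far lower. *Tnxb* encodes tenascin-X, which associates with fibrillar collagen in loose connective tissue, and lies on chromosome 17 from 34670535 to 34719815. It had 547 and 308 counts in the GCE/+ samples, against 387 and 211 counts in the GCE/GCE samples, which were 8.98 and 5.89 CPM against 6.67 and 3.45 CPM. GCE/GCE replicate 1 lay between the GCE/+ samples, so the groups overlapped. The log2 fold change of -0.56 (SE 0.31, 95% interval -1.27 to 0.14, adjusted p = 0.636, edgeR) did not pass the test. It rested on single samples, being -1.12 without GCE/GCE replicate 1, where edgeR's adjusted p was 0.000859, and -0.16 without GCE/GCE replicate 2.

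*Tnn* and *Tnr* lie on chromosome 1, from 160085029 to 160153580 and from 159523769 to 159931729, with 153 kb between them. *Tnn* encodes tenascin-W, known from periosteum and sites of bone formation. It had 6.93 and 4.63 CPM in the GCE/+ samples, against 8.18 and 6.73 CPM in the GCE/GCE samples. The lower GCE/GCE sample was below the higher GCE/+ sample, and the log2 fold change was 0.36 (SE 0.21, 95% interval -0.12 to 0.85, adjusted p = 0.67, edgeR).

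*Tnr*, a tenascin of the nervous system, had 2 and 14 counts in the GCE/+ samples, against 8 and 6 counts in the GCE/GCE samples. These amounted to 0.0328 and 0.268 CPM against 0.138 and 0.098 CPM. In GCE/+ replicate 1 it was below the 3 counts taken as the floor (0.0493 CPM there), and it did not pass the filter on low counts. A difference in *Tnr* was not detectable at this depth, and such floors cover counting error only.

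Of the trimer-forming thrombospondins, *Thbs1* encodes thrombospondin-1, which inhibits angiogenesis and activates latent TGF-β, and lies on chromosome 2 from 118111876 to 118127133. It had 59461 and 56761 counts in the GCE/+ samples, against 66306 and 51046 counts in the GCE/GCE samples. Scaled, these were 977 and 1085.5 CPM against 1142 and 834 CPM. The GCE/GCE samples held both the highest and the lowest value, with the GCE/+ samples between them. The log2 fold change was -0.06 (SE 0.15, 95% interval -0.42 to 0.29, adjusted p = 0.966, edgeR).

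*Thbs2*, whose product is known for collagen fibril organisation, lies on chromosome 17 from 14665500 to 14694235. It had 208 and 185 CPM in the GCE/+ samples, against 217 and 174 CPM in the GCE/GCE samples. As for *Thbs1*, the GCE/GCE values enclosed the GCE/+ values, and the log2 fold change was -0.01 (SE 0.12, 95% interval -0.28 to 0.26, adjusted p = 0.994, edgeR). The sign of the estimate for these 2 genes changed when single samples were left out.

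Of the pentamer-forming thrombospondins, *Thbs3* lies on chromosome 3 from 89215180 to 89226837. It had 109.6 and 103 CPM in the GCE/+ samples, against 106 and 99.4 CPM in the GCE/GCE samples. It had the narrowest interval of the 8 genes, with a log2 fold change of -0.05 (SE 0.08, 95% interval -0.24 to 0.14, adjusted p = 0.944, edgeR). Its exons share 273 bases, 8.56% of its transcript, with *Mtx1* on the opposite strand, which had 23.5 to 28.4 CPM, and the counting is not stated to use strand. Transcripts on the opposite strand that are not among the counted symbols share exonic bases with *Tnc* (*8030451A03Rik*, 176 bases), *Thbs1* (*Gm29233*, 187 bases) and *Tnr* (*Gm38039*, 443 bases).

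*Thbs4*, a thrombospondin of tendon and muscle attachment sites, lies on chromosome 13 from 92751590 to 92794818. It had 187 and 158 CPM in the GCE/+ samples, against 214 and 176 CPM in the GCE/GCE samples. GCE/GCE replicate 2 fell between the GCE/+ samples, and the log2 fold change was 0.18 (SE 0.12, 95% interval -0.10 to 0.45, adjusted p = 0.739, edgeR). Of 10 tendon markers, *Tnmd*, *Mkx* and *Fmod* were higher and *Kera* was lower in GCE/GCE cells at the same threshold. The other 6 did not pass in edgeR, and the median log2 fold change of the 10 was 0.15. Their sums overlapped, at 2676 and 2181 CPM in GCE/+ against 2840 and 2078 CPM in GCE/GCE samples. DESeq2 called 4 of the 10 higher, among them *Scx* (0.68, adjusted p = 0.0184), and 1 lower.

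*Comp* lies on chromosome 8 from 70373558 to 70382066. It had 138 and 216 counts in the GCE/+ samples, against 365 and 435 counts in the GCE/GCE samples, which were 2.27 and 4.13 CPM against 6.29 and 7.11 CPM. Both GCE/GCE samples were above both GCE/+ samples, and the GCE/+ replicates differed by 0.87 on the log2 scale, against 0.18 between the GCE/GCE replicates. The estimate was 2.11-fold, a log2 fold change of 1.08 (SE 0.26, 95% interval 0.48 to 1.67), and its Benjamini-Hochberg adjusted p in edgeR was 0.12, above the threshold. DESeq2 gave 1.07 with an adjusted p of 0.00811. Leaving out GCE/+ replicate 2 gave 1.56 (adjusted p = 0.0143, edgeR), and leaving out GCE/+ replicate 1 gave 0.69 (adjusted p = 0.25, edgeR).

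The 14 cartilage markers, which do not include *Comp*, summed to 1018 and 1497.5 CPM in GCE/+ cells and to 2125 and 2286 CPM in GCE/GCE cells. These sums were in the same order as *Comp*, but single markers such as *Acan*, *Matn3*, *Col11a1* and *Lect1* were not. The median difference of GCE/+ replicate 2 from replicate 1 was 0.75 on the log2 scale for these markers, and all 14 had both GCE/GCE values above both GCE/+ values. Their part in the values of *Comp* was not tested.

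**Figure D3:**
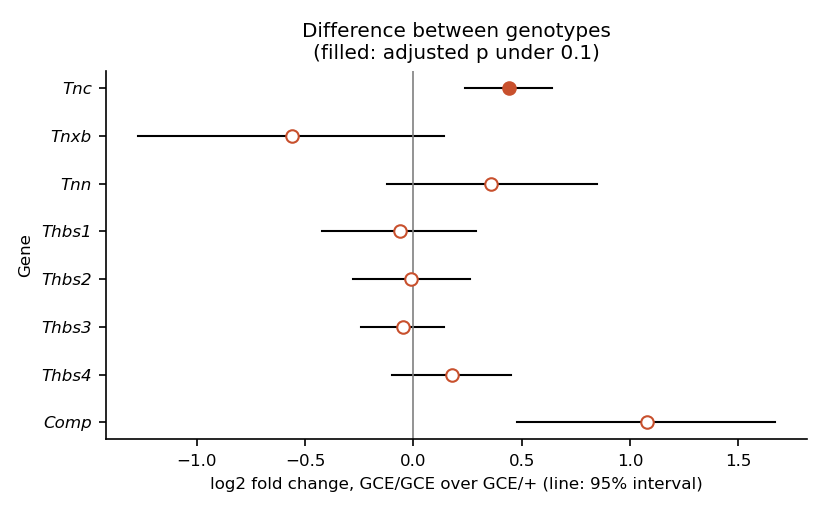
Log2 fold change of GCE/GCE over GCE/+ for the 8 tested genes, with lines for the 95% interval and a filled point where edgeR's adjusted p was under 0.1. The point of *Tnc* (0.44) is filled, the interval of *Comp* (0.48 to 1.67) also lies above 0, and the other 6 intervals include 0.

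Genes that work with these proteins were taken from 4 lists: receptors, matrix partners, proteases and TGF-β activation and signalling. Among 22 receptors, 1 fell, none rose and 21 did not pass in edgeR, with a median log2 fold change of 0.02. DESeq2 called 1 higher, *Egfr* (0.34, adjusted p = 0.0618), and 2 lower, *Cd36* and *Sdc4* (-0.44, adjusted p = 0.0217). The gene that fell in edgeR was *Cd36*, the receptor for the type 1 repeats of the *Thbs1* and *Thbs2* products. It had 24.1 and 25 CPM in the GCE/+ samples, against 15.9 and 11 CPM in the GCE/GCE samples. The log2 difference in *Cd36* was -0.87, with an SE of 0.17 and an adjusted p of 0.0649 in edgeR. *Cd36* is also expressed by macrophages, and the 13 macrophage markers summed to 353 CPM in both GCE/+ samples and to 221 and 156 CPM in GCE/GCE cells. Their part in the fall of *Cd36* was not tested. The receptors with the highest CPM were *Calr* (1524 and 1425 against 1353 and 1328 CPM) and the integrin subunit gene *Itgb1* (692 and 695 against 659.7 and 673 CPM). *Itga9*, whose product pairs with that of *Itgb1* to bind tenascin-C, had 117 and 129 CPM in the GCE/+ samples, against 145 and 143 CPM in the GCE/GCE samples, with adjusted p = 0.348 (edgeR).

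Among 20 matrix partners, 3 rose, none fell and 17 did not pass in edgeR, with a median of 0.26. DESeq2 called 2 higher, *Col9a2* and *Matn4*, and 1 lower, and with the replicate block edgeR called 7 higher and 1 lower. The gene lower in DESeq2 was *Dcn*, which encodes decorin, with 517 and 375 CPM against 316 and 242 CPM (log2 fold change -0.68, adjusted p = 0.00106 in DESeq2 and 0.131 in edgeR). *Col9a1* and *Col9a2* encode chains of collagen IX and *Matn4* encodes a matrilin. *Col9a1* had 48.5 and 84.9 CPM in the GCE/+ samples, against 125 and 135 CPM in the GCE/GCE samples. *Col9a1* rose by 0.97 (SE 0.21, adjusted p = 0.0988, edgeR), and DESeq2 did not call it (adjusted p = 0.29). *Col9a2* rose by 0.59 (SE 0.11) and *Matn4* by 0.81 (SE 0.16), with adjusted p = 0.0649 and 0.0679 (edgeR). *Col9a1* and *Col9a2* are also among the cartilage markers above. The partners with the highest CPM, *Col1a2* (5421 and 4963 against 5058 and 4482.5 CPM) and *Col1a1* (3683 and 3109.8 against 3463 and 2627 CPM), overlapped between genotypes. *Col12a1*, whose collagen binds tenascin-X, had 624 and 623 CPM against 884 and 691 CPM (adjusted p = 0.37, edgeR).

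Of 15 proteases 11 were tested, as *Mmp3*, *Mmp7*, *Mep1b* and *Plg* had at most 3 counts in every sample. *Plau*, the urokinase gene, fell from 37.5 and 52.8 CPM to 27.7 and 23.4 CPM, with a log2 difference of -0.82 (SE 0.16, adjusted p = 0.068, edgeR), and the other 10 did not pass. *Mmp2* (402 and 413 against 422 and 368 CPM) and *Bmp1* (383 and 373 against 383 and 408 CPM) had the highest CPM. *Adamts7* and *Adamts12* encode proteases that cleave COMP. *Adamts7* had 100.4 and 113 CPM against 107 and 104 CPM, and *Adamts12* had 54.4 and 71.2 CPM against 92.3 and 80.6 CPM (adjusted p = 0.194 in edgeR and 0.044 in DESeq2).

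Among 18 genes of TGF-β activation and signalling, *Tgfb3* rose by 0.40 (SE 0.08, adjusted p = 0.066, edgeR), none fell and 17 did not pass in edgeR, with a median of 0.04. With the replicate block none of the 18 passed, *Tgfb3* included. DESeq2 called *Tgfb3* and *Tgfbi* higher and *Tgfb1* and *Tgfbr3* lower. *Ltbp1*, which encodes a latent TGF-β binding protein, had 405 and 385 CPM in the GCE/+ samples, against 401 and 406 CPM in the GCE/GCE samples. *Tgfbi*, a TGF-β-induced ECM gene, had 258 and 289 CPM against 401 and 349 CPM, with adjusted p = 0.106 in edgeR and 0.00437 in DESeq2. *Tgfb1* had 9.89 and 8.68 CPM against 6.86 and 5.42 CPM, with adjusted p = 0.18 in edgeR and 0.0917 in DESeq2. *Tgfbr3*, which encodes the co-receptor betaglycan, had 192 and 205 CPM against 162 and 148 CPM, with adjusted p = 0.125 in edgeR and 0.0337 in DESeq2.

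**Figure D4:**
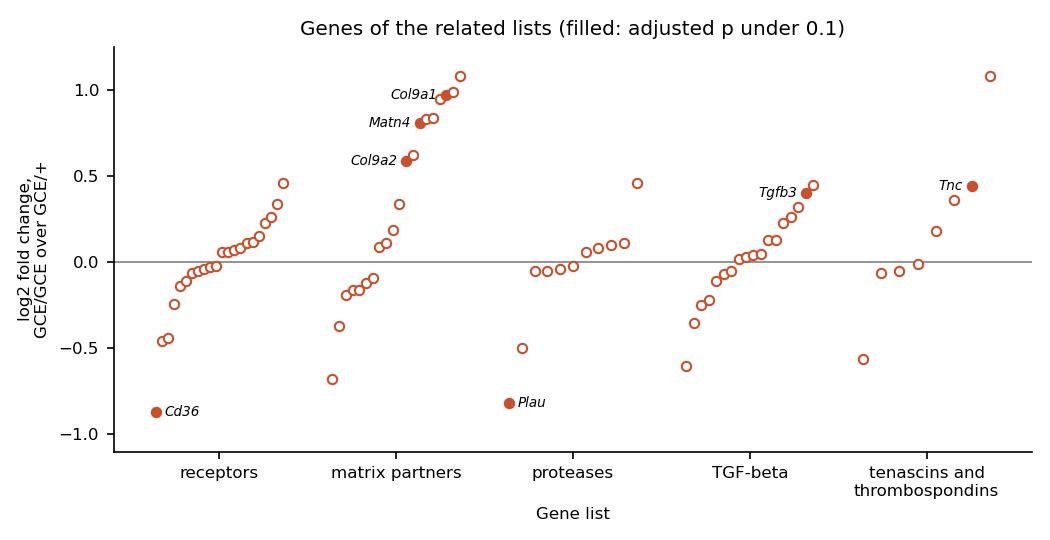
Log2 fold change of GCE/GCE over GCE/+ for the tested genes of each list and for the 8 tested tenascins and thrombospondins, sorted within a list, with filled and named points where edgeR's adjusted p was under 0.1. The filled points are *Cd36* (-0.87) and *Plau* (-0.82) below 0, and *Col9a1*, *Matn4*, *Col9a2*, *Tgfb3* and *Tnc* above 0.

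**Figure D5:**
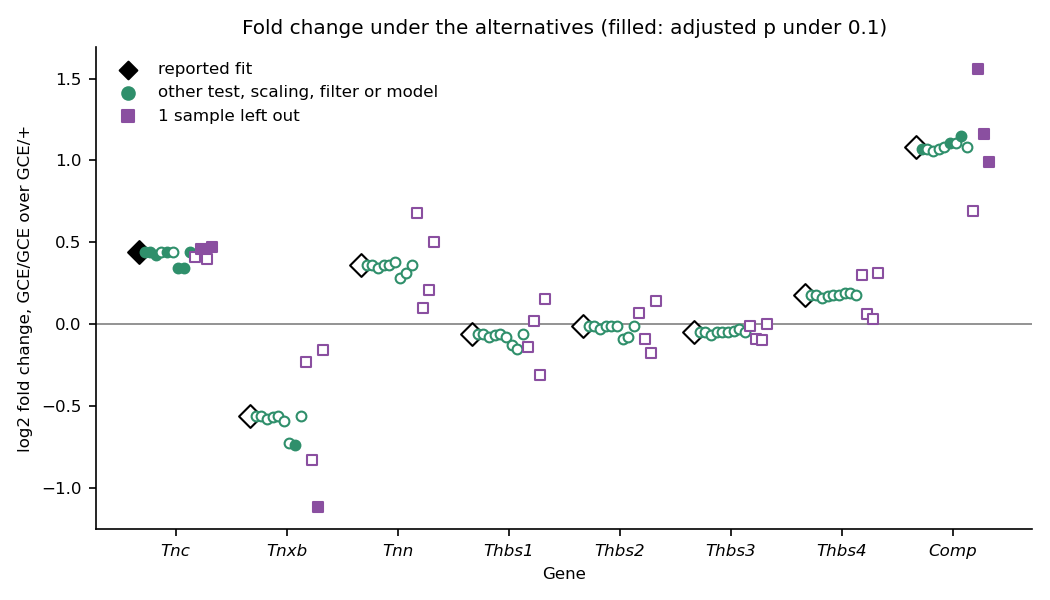
Log2 fold change of each tested gene in the reported fit (diamond) and under 13 alternatives (circles for another test, scaling, filter or model, squares with 1 sample left out), filled where the adjusted p was under 0.1. *Tnc* stays between 0.34 and 0.47 and *Comp* between 0.69 and 1.56, and *Tnxb* ranges from -1.12 to -0.16.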

How the data were processed

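The authors aligned their paired-end reads with TopHat2 (mm9, UCSC gene models). Fragments were assigned to genes by HTSeq, set to intersection-strict. The authors deposited these as raw counts, 1 file per sample and without normalization. Intersection-strict counting drops fragments that reach outside annotated exons or fit 2 genes.

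Genotypes and replicate numbers were taken from the labels. Genes were filtered with filterByExpr, scaled by TMM and tested over the whole table by the quasi-likelihood test of edgeR (version 4.0.16, R 4.3.3), two-sided, with the study's threshold of 0.1 on Benjamini-Hochberg adjusted p. SEs were derived from the F statistic and 95% intervals from the total degrees of freedom of each gene. The fits were tested on simulated counts. Replicates differed by more than sampling noise (chi-square per degree of freedom 30.8 in GCE/+ and 25.9 in GCE/GCE). Coordinates and lengths (the longest transcript linked to RefSeq) are from a GENCODE annotation of GRCm38, to which 98% of symbols matched, and none were converted from mm9. Sequences are from RefSeq, and *Thbs1* and *Comp* had no entry.

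The members and lists were chosen with earlier results of these data known. Named from each list were the genes past the threshold and the 2 with the highest mean CPM. The genes with the 3 most similar patterns and genes sharing exonic bases with a member were named too. *Itga9*, *Col12a1*, *Adamts7*, *Adamts12*, *Tgfb1*, *Tgfbr3*, *Egfr*, *Sdc4*, *Dcn* and the named marker genes were added for their known roles or their DESeq2 values after values were seen. Alternatives were DESeq2 1.42.0, RLE and upper quartile scaling, no filter or at least 10 counts in every sample, a robust fit, the replicate block, length offsets with and without it, an adjusted p under 0.05 and leaving out each sample. Figures were drawn with matplotlib 3.10.9.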

Additional observations from a re-analysis of the deposited data

How the results depend on the processing

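Of 13 alternatives per tested gene, *Tnc* kept its direction in 13 and its call in 9, with adjusted p from 0.000508 to 0.166. *Thbs3*, *Thbs4* and *Tnn* kept their direction and stayed above the threshold in every one. Beside the values given with *Tnc*, *Comp* and *Tnxb*, *Comp* was at 1.07 in DESeq2, and its adjusted p was 0.000312 without GCE/GCE replicate 1 and 0.0109 without GCE/GCE replicate 2, at log2 fold changes of 1.16 and 0.99. Leaving out 1 sample gave ranges of 0.40 to 0.47 for *Tnc*, 0.69 to 1.56 for *Comp*, -1.12 to -0.16 for *Tnxb*, -0.31 to 0.15 for *Thbs1* and -0.18 to 0.14 for *Thbs2*. The sign was reversed for *Thbs1* at 0.02 without GCE/+ replicate 2 and 0.15 without GCE/GCE replicate 2, and for *Thbs2* at 0.07 without GCE/+ replicate 1 and 0.14 without GCE/GCE replicate 2. In these fits the lone sample of a genotype is assumed to vary like the other genotype.

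Same-numbered samples did not deviate together (correlation -0.0335 over 10249 genes). With 2 samples per genotype this check cannot decide whether the numbers pair the embryos, and the labels do not state it. With the replicate number as a block, 290 genes passed, against 285. There *Tnc* kept 0.44 with an adjusted p of 0.11, and *Comp* was at 1.11 with 0.0716. With the block and length offsets, 356 of the 15645 tested genes passed. Of the 8 genes 3 passed there, *Tnc* at 0.34 (adjusted p = 0.0875), *Comp* at 1.15 (0.082) and *Tnxb* at -0.74 (0.082). All adjusted p here are from edgeR's quasi-likelihood test unless DESeq2 is named.

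Genes past the threshold numbered 508 in DESeq2, 127 without the filter, 130 at an adjusted p under 0.05 and 199 to 961 with 1 sample left out. Of the 8 genes, 2 passed in DESeq2, 0 without the filter, 0 at 0.05 and 0 to 2 with 1 sample left out. Genotypes were apart for 2 of the 8, against 38.4% of all tested genes. With 1 sample left out they were apart for 4 to 6 of the 8, since fewer samples overlap less. The share over all genes was not computed for those fits, so these counts cannot be set against it. The median of the 8, 0.08, moved to between -0.04 and 0.23. In the order by length, 4 of 9 genes kept their place without division by length and 7 when ranked by GCE/GCE samples. With DESeq2, 3 receptors (1 higher, 2 lower), 3 matrix partners (2 higher, 1 lower), 2 proteases (1 higher, 1 lower) and 4 TGF-β genes (2 higher, 2 lower) passed. With the block, 8 matrix partners (7 higher, 1 lower) and 0 TGF-β genes passed. The cause of these moves was not tested. Depth limited *Tnr*, which was under 3 counts in 1 sample.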
